A study of Mus musculus with 9 samples.

Results

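Ets1 is a member of the ETS family of transcription factors, and the regions described here are the promoter Ets1 peaks that were listed in adipocytes of cold-stressed mice and in neither adipocytes of room temperature mice nor cultured beige adipocytes. The members were selected on the peak calls themselves. A peak of the cold stress (CS) list was kept if it overlapped the 1 kb on either side of a transcription start site (TSS) of a protein-coding gene in GENCODE M21, and if it shared not even 1 bp with a peak of the room temperature (RT) list or of the beige list. Of 14858 CS peaks, 6935 were promoter peaks, and 1402 of these (20.2% of the promoter peaks, a share fixed by the rule) remained as members. They lay in the promoter windows of 1422 of 21938 protein-coding genes (6.48%), and 19.8% of the 7177 genes with any CS promoter peak had a member peak.

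The study asked what Ets1 does in subcutaneous fat during beiging. Ets1 was mapped in mature adipocytes floated from collagenase-digested inguinal white adipose tissue (iWAT) of wild type C57 male mice aged 8 to 10 weeks, kept at room temperature (RT) or in the cold for 7 days (CS), and in beige cells made from the iWAT stromal vascular fraction of male mice aged 3 to 4 weeks by 6 days of beige differentiation. Open chromatin (ATAC) and acetylation of histone H3 at lysine 27 (H3K27ac) were mapped in adipocytes of male mice aged 8 to 10 weeks that were either Flox (Ets1 f/f, no Cre) or EAKO (Ets1 f/f with Adipoq-cre, which deletes the floxed Ets1 exons in cells that express adiponectin). H3K27ac was also mapped in adipocytes of male EC+/+ mice (Ets1 ki/ki without Cre) and male EA+/+ mice, aged 8 to 10 weeks. EA+/+ is Ets1 ki/ki with Adipoq-cre, which switches on an inserted Ets1 copy. The mice of all groups were of C57 background. Each of the 9 groups was 1 library, so no difference between groups has a replicate check, no p-value is given, and every interval is a 95% Wilson interval that covers counting error only. Openness and acetylation at the members came from other mice than the Ets1 peaks, of other genotypes. The labels did not give a cold treatment for the Flox, EAKO, EC+/+ or EA+/+ mice. Openness and acetylation may thus not have been measured in cold fat.

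ETS factors bind DNA through a conserved ETS domain that reads a GGAA core, and ETS sites are common close to the start sites of broadly used genes. Ets1 is best known from lymphocytes and endothelium. A promoter in use is usually free of nucleosomes over its start site, which ATAC detects as frequent cutting by the Tn5 transposase, and its flanking nucleosomes usually carry H3K27ac. In mammals the promoters of broadly used genes tend to lie in CpG islands, where the dinucleotide CG has been kept, whereas promoters of genes used in few tissues are more often poor in CG.

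The lists differed in length, and that sets what the rule could find. The RT list held 4056 peaks and the beige list 30553, beside the 14858 of CS. Of the CS promoter peaks, 681 overlapped an RT peak and 5484 a beige peak, so that most of what the rule removed was removed by the beige list. A peak missing from a list was not called there, which is not the same as an absence of binding. The lists carry no read counts, so a missing peak has no counting limit. With 1 library a group, library and treatment cannot be told apart. Over exons 2 to 7 of the 8-exon Ets1 transcript (chr9:32728675-32752917, mm10), the floxed exons, the Flox lists held 4 ATAC and 5 H3K27ac peaks, and the EAKO lists still held 2 and 3. As a check of the labelled cells, an ATAC peak in a promoter window was counted in Flox. It was present at 67.7% of all protein-coding genes and at 7 of 10 adipocyte markers, 18 of 20 markers of adipose stem and progenitor cells, 16 of 20 of endothelium, 9 of 10 of mural cells, 7 of 10 of skeletal muscle, 6 of 10 of Schwann cells, 5 of 10 of mesothelium, 9 of 24 of lymphocytes, 5 of 20 of macrophages and 2 of 10 of epithelium. The adipocyte markers were thus near the share of all genes, and these counts do not tell which cells were present.

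The full ETS sequence CCGGAAGT (ACTTCCGG on the other strand) stood within the 101 bases centred on the summit in 6 members, which are shown first because letters that ETS factors read lie under their peaks. The forward strand of mm10 is given, read from the RefSeq GRCm38.p6 genome. The sequence is in capitals, and 30 bases are printed where the window touched an annotated untranslated region (UTR). Coordinates are chr3:67430103-67430132 for Gfm1, chr2:118728437-118728466 for Plcb2, chr15:78571676-78571776 for Rac2, chr11:64079481-64079510 for Cox10, chr9:92250467-92250567 for Plscr1 and chr7:118855665-118855694 for Knop1.
Gfm1: tgaccttcctcCCGGAAGTgctcctgcggc
Plcb2: ccagtactggtCCGGAAGTcgggtgctctt
Rac2: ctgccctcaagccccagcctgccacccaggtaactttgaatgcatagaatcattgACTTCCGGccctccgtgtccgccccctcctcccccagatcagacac
Cox10: ttcctcttgtcACTTCCGGctcccagcgct
Plscr1: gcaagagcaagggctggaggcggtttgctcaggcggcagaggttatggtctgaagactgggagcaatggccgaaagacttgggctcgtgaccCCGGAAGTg
Knop1: gcagccgcgatCCGGAAGTcagcttcgact

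Itprid2, 2310009B15Rik, Susd3 and Mfng are shown as examples of open members rich in CG and of members not open and poor in CG. The first 2 were picked among open members with a ratio of observed to expected CG of at least 0.6. The other 2 were picked among members that were not open, had a ratio under 0.4 and were masked under 50%. Their contrast in CG thus follows from the choice. Gas2, a stronger member open in neither genotype, had a ratio of 0.852. Itprid2 (chr2:79635151-79635251) and 2310009B15Rik (chr1:138856858-138856958) overlapped an ATAC peak in Flox and in EAKO, and Susd3 (chr13:49242944-49243044) and Mfng (chr15:78772511-78772611) in neither. Each CG is in capitals on the forward strand of mm10, and the windows held 9, 5, 2 and 1 of them.
Itprid2: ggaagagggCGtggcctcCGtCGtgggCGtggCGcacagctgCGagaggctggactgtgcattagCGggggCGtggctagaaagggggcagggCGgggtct
2310009B15Rik: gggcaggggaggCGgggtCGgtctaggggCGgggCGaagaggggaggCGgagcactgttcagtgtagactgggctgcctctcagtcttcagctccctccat
Susd3: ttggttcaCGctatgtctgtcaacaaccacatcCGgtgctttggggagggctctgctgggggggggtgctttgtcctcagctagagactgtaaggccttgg
Mfng: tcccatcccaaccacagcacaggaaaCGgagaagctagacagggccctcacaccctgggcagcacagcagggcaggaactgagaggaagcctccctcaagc

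The 2 members with the highest CS −log10 q, Oasl1 (chr5:114922443-114922543) and Gm10717 (chr9:3029753-3029853), lay in repeated sequence. Their summit windows shared a run of 18 bases, in capitals on the forward strand of mm10.
Oasl1: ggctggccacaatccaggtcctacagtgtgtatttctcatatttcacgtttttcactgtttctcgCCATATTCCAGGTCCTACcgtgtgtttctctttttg
Gm10717: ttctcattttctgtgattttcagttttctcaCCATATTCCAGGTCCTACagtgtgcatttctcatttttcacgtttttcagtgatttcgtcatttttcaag

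The members were weak Ets1 peaks on the scale of their own list. The CS −log10 q, the strength that the peak caller gave each peak, had a median of 2.87 in the members (quartiles 2.22 and 3.96, range 1.30 to 105), against 5.69 in the promoter peaks shared with beige and 11.6 in those shared with RT. The median member stood at percentile 38.3 of all CS peaks, and the median peak shared with beige at 74.4. A total of 174 members (12.4%) reached a −log10 q of 5, against 3225 of the 5533 other CS promoter peaks. The members were also narrow, with a median width of 222 bp, compared with 380 bp in the peaks shared with beige. These values belong to the data that chose the members, and they are given as a description.

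Oasl1, a gene of the interferon-induced 2'-5'-oligoadenylate synthetase family, had the strongest member peak by far (−log10 q 105, fold enrichment 23.1), 747 bp upstream of the TSS. Of its bases, 84.4% were repeat-masked, and it overlapped no ATAC or H3K27ac peak in any list. Gm10717, a predicted gene near the start of the chromosome 9 assembly, was next at 28.7, with 97.4% of its bases masked. The 31 bases at its summit occurred 95 times in the assembled chromosomes, and it too was neither open nor acetylated in Flox or EAKO. Map4k5, which encodes a kinase upstream of JNK signalling, had a −log10 q of 10.4, lay in sequence that was 98.7% masked, and overlapped no ATAC peak, while an H3K27ac peak covered it in EC+/+ (6.48) and EA+/+ (6.97). Unlike those of Gm10717, the 31 bases at the Oasl1 summit and at the Map4k5 summit occurred only 1 time each. Of the members, 29 (2.07%, 1.44 to 2.95) were masked over at least 50% of their bases, above the 0.851% (0.660 to 1.10) of all CS promoter peaks and the 0.328% of those shared with beige. Of the peaks shared with RT it was 3.96% (2.74 to 5.71), an interval that overlaps that of the members. In 15 members (1.07%, 0.649 to 1.76), the 31 bases at the summit had more than 1 exact copy, against 0.547% (0.383 to 0.780) of the peaks shared with beige.

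Cd82, which encodes a tetraspanin of the plasma membrane, had the strongest member peak in sequence that was mostly unmasked (chr2:93462153-93462838, −log10 q 19.4, fold enrichment 7.91), and Itprid2 followed at 19.0. Both were open and acetylated in Flox and in EAKO. At Cd82 the overlapping ATAC peak had a −log10 q of 106 in Flox and 75.3 in EAKO, and the H3K27ac peak 39.5 and 44.3. Other strong members that were open and acetylated in both genotypes were Pcmtd2 (11.2), Ralgapa1, which encodes a GTPase-activating subunit that acts on Ral (10.2), Ccdc88c, a scaffold of Wnt signalling (9.37), Rsl1, a zinc finger repressor (9.36), Scoc, a coiled-coil protein of the Golgi (9.36) and Ubxn6, a cofactor of the ATPase p97 (9.19). Nedd9, a scaffold of focal adhesions, had a −log10 q of 11.3 and no ATAC peak. Its H3K27ac peak was listed in Flox (3.62) and not in EAKO. Of the 15 strongest members, Oasl1, Gm10717, Nedd9 and Map4k5 lacked an ATAC peak in both genotypes, and Stk38l, which encodes an NDR kinase, was open in Flox only (52.4). The weakest members were Fbxo42 (1.32), Vps13a and Bckdhb (both 1.30), and all 3 were open and acetylated in Flox.

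The limits of the rule were narrow for a number of members. Pcsk7, with no base between it and a beige peak, and Prdm4 and Klhl28, with 1 base between, counted as members, whereas Tmem267 and Ktn1 shared 1 bp and Mrps24 shared 2 bp with a beige peak and did not. On the RT side Prss46 lay 8 bp and Ppfibp2 13 bp from the nearest RT peak, and Ing1 shared 3 bp with one. In all, 451 members had a beige peak within 1 kb and 126 within 100 bp, and 30 and 3 had an RT peak at these distances. The median distance to the nearest beige peak was 8405 bp. At the level of genes, 710 of the 1422 had no RT or beige peak in any of their promoter windows, while 703 had a beige peak and 54 an RT peak elsewhere in a window.

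The members lay farther from start sites than the peaks that cold fat shared with beige cells. The summit was a median of 223 bp from the nearest TSS, compared with 87.0 bp, and 53.1% of the members (50.4 to 55.7) had their summit within 250 bp of a TSS, compared with 84.6% (83.6 to 85.5). The members lay more often downstream of the start: 39.5% (37.0 to 42.1) were upstream, against 56.9% (55.6 to 58.2). The summit of 557 members (39.7%) fell in an intron, 307 (21.9%) in a UTR, 273 (19.5%) in another exon and 265 (18.9%) outside protein-coding genes. Of the peaks shared with beige, 34.1% fell in a UTR and 20.1% in an intron. Of the members, 1239 (88.4%, 86.6 to 89.9) were near the start of a transcript annotated as protein-coding, and the others were near starts of non-coding transcripts of the same genes only. The Y chromosome held no member, and the share of promoter peaks that were members ran from 15.1% on chromosome 18 to 25.5% on chromosome 6. Most members had 1 gene in reach (1319), 81 had 2 and 2 had 3 or more. Of the genes, 60 had 2 member peaks, and 3 had 3: 2010111I01Rik, Lrrc8d, a subunit of the volume-regulated anion channel, and Sgms1, a sphingomyelin synthase.

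Fewer members than shared peaks were open and acetylated. In Flox, 969 of 1402 members (69.1%, 66.6 to 71.5) overlapped an ATAC peak, while 92.4% of all CS promoter peaks and 98.7% (98.4 to 99.0) of those shared with beige did. In EAKO the count was 832 (59.3%, 56.8 to 61.9), against 87.7% of all CS promoter peaks and 95.2% (94.6 to 95.8) of those shared with beige. H3K27ac gave like shares. An H3K27ac peak overlapped 979 members (69.8%, 67.4 to 72.2) in Flox and 847 (60.4%, 57.8 to 62.9) in EAKO, against 91.9% and 85.9% of all CS promoter peaks. In EC+/+ it overlapped 818 (58.3%) and in EA+/+ 780 (55.6%), against 75.5% and 71.6%. The promoter peaks shared with RT, which are fewer and stronger, stood at 95.9% in Flox ATAC and 96.8% in Flox H3K27ac, so in all 6 lists the interval of the members lay below both other intervals.

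**Figure D1:**
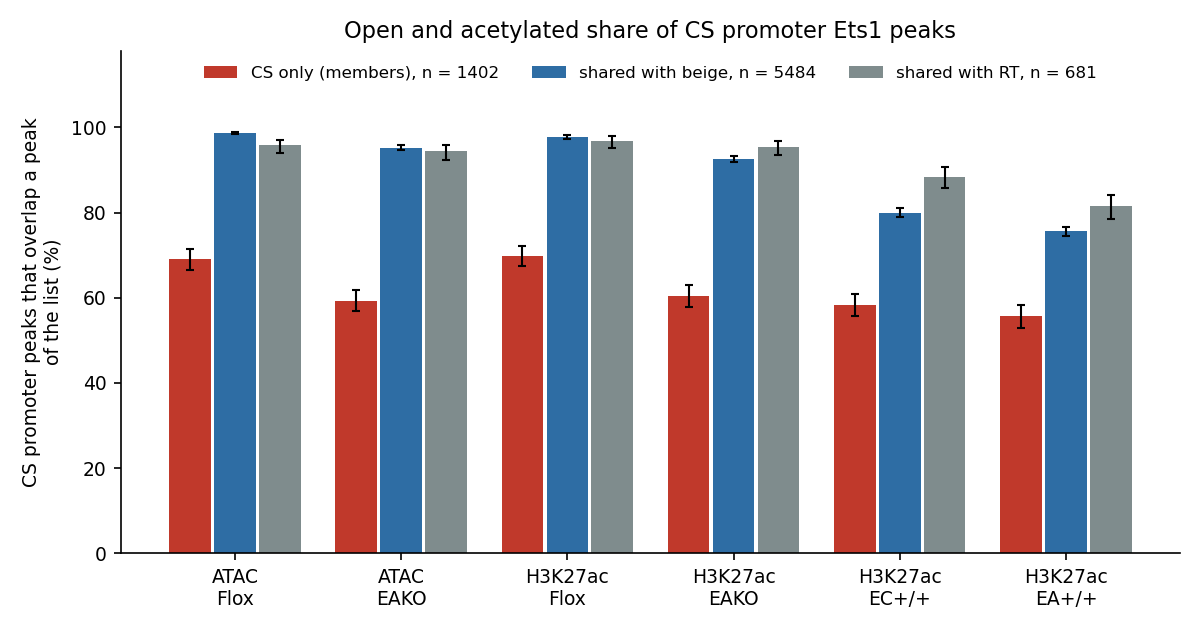
Share of CS promoter Ets1 peaks (%, y axis) that overlapped a peak of each ATAC or H3K27ac list (x axis) for the 1402 members, the 5484 peaks shared with beige and the 681 shared with RT, with bars for the share and whiskers for the 95% Wilson interval. The members lie between 55.6% and 69.8%, below the shared peaks in every list; 49 CS promoter peaks that overlap only an RT peak are among the 681, and most of the 681 are also among the 5484.

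The members stayed below the peaks shared with beige within each class of Ets1 strength. Among members with a CS −log10 q of 3 to 5, 73.1% (69.0 to 76.9) were open in Flox. Among the shared peaks it was 98.2% (97.4 to 98.8). From 2 to 3 the shares of members and shared peaks were 64.6% (60.6 to 68.4) and 96.7% (95.1 to 97.8). The class of at least 5 has no upper limit. There it was 138 of 174 members (79.3%, 72.7 to 84.7) and 99.4% (99.1 to 99.6) of the shared peaks. Below 2 it was 62.5% (55.2 to 69.3) and 96.6% (92.4 to 98.6). Distance from the start site gave the same order. With the summit under 100 bp from a TSS, 79.8% of the members (75.6 to 83.5) were open in Flox, against 99.3% of the shared peaks, and at 500 bp or more it was 47.2% (42.0 to 52.5) against 95.7%. CG content separated the members too. Where the ratio of observed to expected CG was under 0.4, 34.5% of the members (30.3 to 38.9) were open in Flox, and where it was at least 0.6 the share was 87.0% (84.3 to 89.3). In the peaks shared with beige the shares in these classes were 92.9% and 98.9%. These classes were chosen after the data had been seen.

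**Figure D2:**
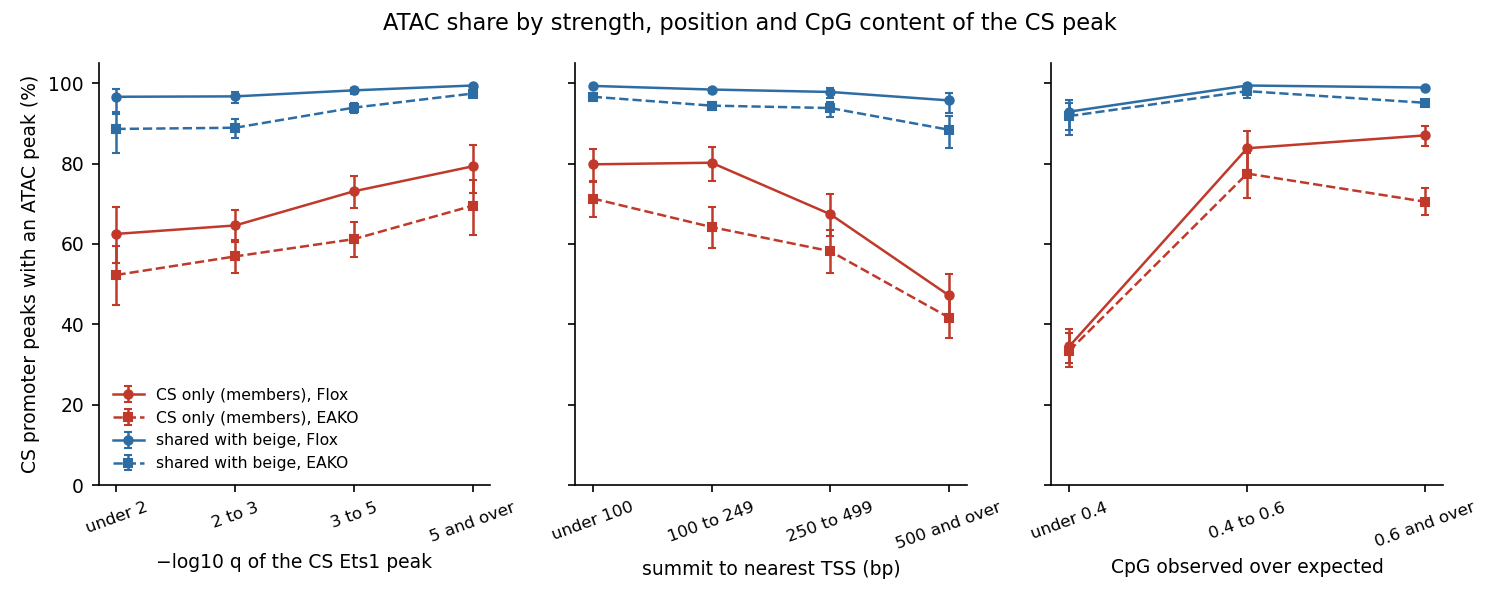
Share of CS promoter Ets1 peaks with an overlapping ATAC peak (%, y axis) by the −log10 q of the CS peak, the distance of its summit from the nearest TSS and its ratio of observed to expected CG, for members and for peaks shared with beige, in Flox (circles) and EAKO (squares), with 95% Wilson intervals. The members stay below the shared peaks in every class, and in Flox they run from 34.5% in the class poorest in CG to 87.0% in the richest.

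The members that were open in Flox and those that were not differed in sequence and position. The 433 members without a Flox ATAC peak had a median GC content of 57.4% and a median CG ratio of 0.254, compared with 65.5% and 0.706 in the 969 open ones. Their summits lay a median of 396 bp from a TSS, compared with 174 bp. A run of 6 CA units, a simple repeat, was present in 18 of the 433 peaks (4.16%, 2.65 to 6.47) and in 16 of the 969 (1.65%, 1.02 to 2.67). Fewer of the members that were not open lay near the start of a protein-coding transcript (74.1% against 94.7%). H3K27ac went with openness, since 857 of the 969 open members (88.4%, 86.3 to 90.3) and 122 of the 433 others (28.2%, 24.1 to 32.6) were acetylated in Flox.

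**Figure D3:**
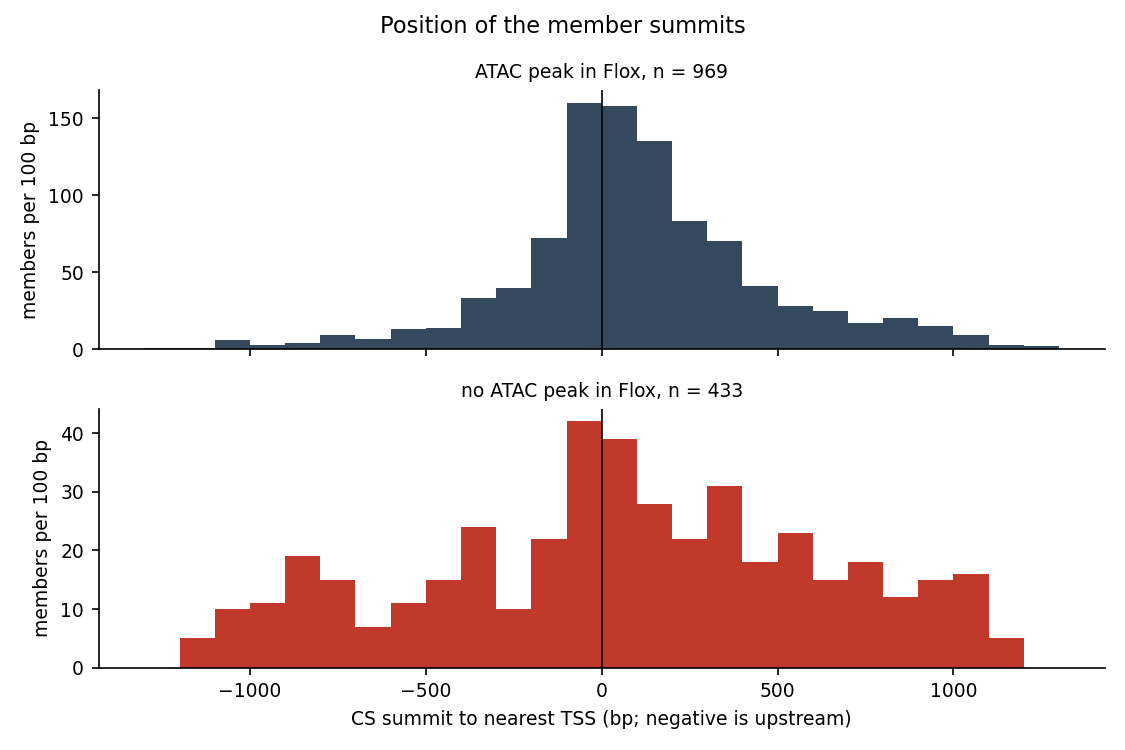
Number of members per 100 bp (y axis, different scale in each panel) by the distance of the CS summit from the nearest TSS (bp, negative is upstream), for the 969 members with an ATAC peak in Flox and the 433 without. Open members gather around the start site, with a median distance of 174 bp, and the others are spread over the window, with a median of 396 bp.

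All 6 ATAC and H3K27ac lists together set apart members at the extremes. A peak was present in every list at 456 members (32.5%, 30.1 to 35.0), against 58.7% of all CS promoter peaks. No list had a peak at 211 members (15%, 13.3 to 17.0), against 3.56% of all CS promoter peaks and 0.584% of those shared with beige. The 211 included Oasl1 and Gm10717. They also included members at 8 solute carriers, 6 olfactory receptors, the endothelial gene Tie1 and the muscle gene Mb. Blk, a kinase of B cells, and Nkg7 and Prf1, genes of cytotoxic lymphocytes, were among them too.

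Comparing the genotypes member by member, more members had a peak in Flox alone than in EAKO alone. By ATAC, 816 members (58.2%) were open in both genotypes, against 87.4% of all CS promoter peaks, and 417 (29.7%) in neither, against 7.27%. Flox alone was open at 153 members (10.9%, 9.39 to 12.7), against 5.05% of all CS promoter peaks, and EAKO alone at 16 (1.14%, 0.704 to 1.85), against 0.317%. The same holds for H3K27ac. The classes held 795 members acetylated in both, 371 in neither, 184 in Flox alone (13.1%, 11.5 to 15) and 52 in EAKO alone (3.71%, 2.84 to 4.83), against 84.9%, 7.09%, 6.96% and 0.995% of all CS promoter peaks. The Flox lists were longer than the EAKO lists (88977 and 82839 ATAC peaks, 86834 and 74682 H3K27ac peaks). With the longer list of each assay trimmed to its strongest peaks to match the shorter, 68.2% of the members were open in Flox and 59.3% in EAKO, and 67.5% and 60.4% were acetylated. Each genotype is 1 library, so genotype and library cannot be told apart.

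To compare strengths between the genotypes, each overlapping peak was ranked within its own list, after the longer list of the assay had been trimmed to its strongest peaks to match the shorter, since added weak peaks raise the percentile of all stronger ones. Of 811 members with an ATAC peak in both trimmed lists, the Flox peak stood higher at 494 and lower at 317, with a median difference of 1.91 percentile points. In the peaks shared with beige the Flox peak stood higher at 3087 of 5220 and lower at 2126, with a median difference of 0.588. For H3K27ac the Flox peak stood higher at 435 of 789 members and lower at 354, with a median difference of 0.761. In the peaks shared with beige it stood higher at 2853 of 5064 and lower at 2208, with a median of 0.333. The shared peaks stood nearer the top of the whole Flox ATAC list, at a median percentile of 94.7, against 79.4 for the members. The medians of members and shared peaks are thus not on an equal footing. Ranks in the whole lists gave larger medians for the members, 3.16 and 2.53, which hold the effect of list length. Members open in Flox alone had weaker Flox peaks (median −log10 q 18.4) than members open in both (63.3), and they were rich in GC (median 70.4%, against 65.0%).

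**Figure D4:**
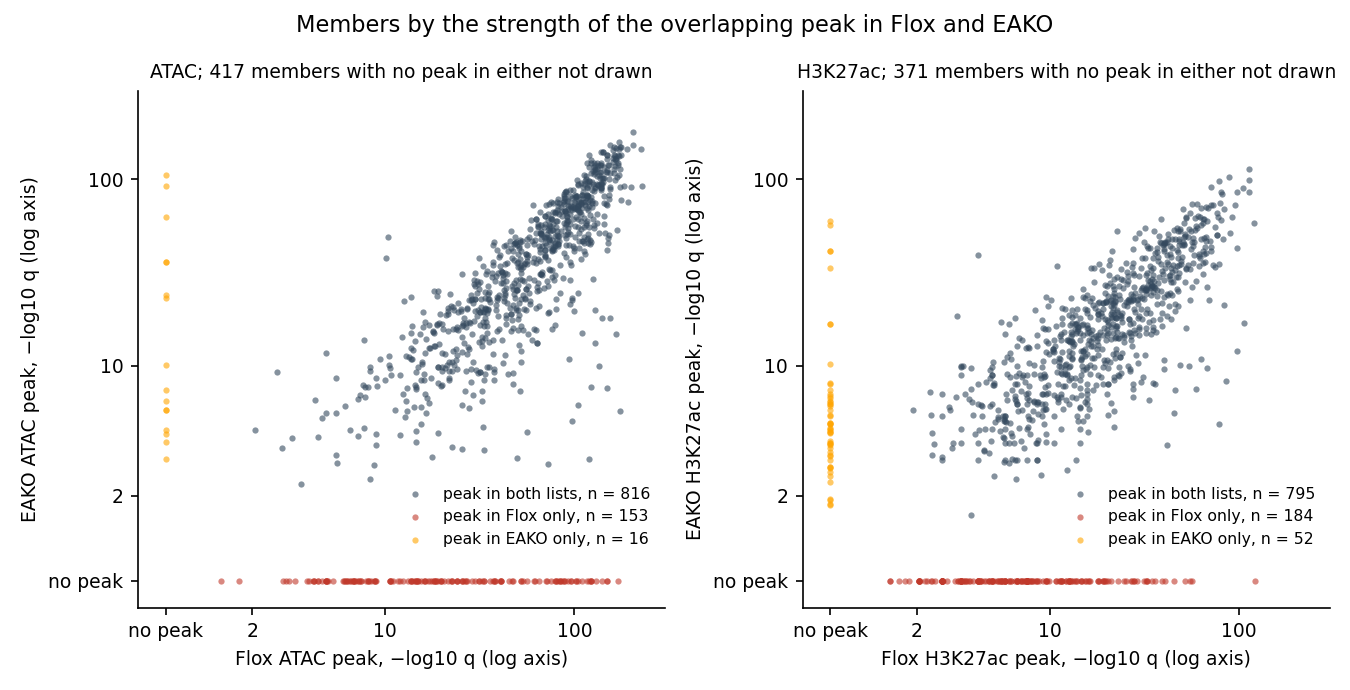
Each point is a member, placed by the −log10 q of the overlapping Flox peak (x axis, log) and EAKO peak (y axis, log) for ATAC (left) and H3K27ac (right); points on the "no peak" margins had a peak in the other genotype only. Most members lie along the diagonal band of peaks present in both, 153 members lie on the EAKO margin of the ATAC panel and 16 on its Flox margin.

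For most members open in Flox alone, an EAKO ATAC peak was close by. At 113 of the 153 (73.9%) an EAKO peak lay within 1 kb, and the median gap was 320 bp. Such gaps, here and below, were counted for members only. They cannot be set against all CS promoter peaks and are not read as a trait of the members. At Rab5a, a GTPase of early endosomes, the Flox ATAC peak had a −log10 q of 169 and the nearest EAKO peak was 206 bp away. At Gabarapl2, an Atg8-family protein that coats autophagosomes, the Flox value was 149 and the gap 297 bp. The other 40 had no EAKO ATAC peak within 1 kb. Named after their values were seen, the strongest of these by Flox ATAC were Gm10190 (45.3), Pcgf2, a Polycomb ring finger protein (38.2), Lrrc8d (33.3) and Tarbp1 (32.4), and none of these peaks was acetylated in Flox or EAKO. Another Tarbp1 member, also open in Flox alone (21.7), was acetylated in Flox (5.61) and not in EAKO. By the strength of the CS peak, the members open in Flox alone were led by Stk38l (10.0), Mark2, a polarity kinase (8.26), Ap4s1, a subunit of the AP-4 adaptor (8.11), Htatip2 (7.34) and Ric1 (6.70).

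The 16 members open in EAKO alone were led by Dusp2, a phosphatase of MAP kinases (CS −log10 q 5.88), Arhgef15 (5.75), Fam149b (5.41), Akt1, the kinase of insulin signalling (3.96) and Slc22a23 (3.64). Their EAKO ATAC peaks had −log10 q of 7.36, 5.76, 23.8, 4.30 and 3.87. A Flox ATAC peak lay within 1 kb of 12 of the 16. Akt1 and Slc22a23 were exceptions, with gaps of 4975 and 4683 bp. The Akt1 member, in an intron 403 bp from a TSS, was acetylated in Flox (7.09) and in EAKO (7.32).

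Members acetylated in Flox alone included 2310009B15Rik, Nedd9, Stk38l, Susd3 and Rab11fip1 at the head of the list by CS strength. Of the 184, 88 had an EAKO H3K27ac peak within 1 kb, and 134 (72.8%, 66.0 to 78.7) had an H3K27ac peak in EC+/+ or EA+/+, near the 69.0% (66.6 to 71.4) of all members. The 52 acetylated in EAKO alone were led by Rabep2, an effector of Rab5 (5.15), Prag1 (4.88) and Cdh13, a cadherin that binds adiponectin (4.58). Of these 52, 18 (34.6%, 23.2 to 48.2) had an H3K27ac peak in EC+/+ or EA+/+, as did 29.9% (25.5 to 34.8) of the members acetylated in neither genotype and 88.7% of those acetylated in both. Among all CS promoter peaks it was 83.8%. In the pair of Ets1 knock-in groups, 630 members (44.9%) were acetylated in both EC+/+ and EA+/+, 188 (13.4%) in EC+/+ alone and 150 (10.7%) in EA+/+ alone. For these 3 classes the shares of all CS promoter peaks were 63.3%, 12.2% and 8.25%.

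The sequence CCGGAAGT was rarer at the summits of the members than at those of the peaks shared with beige. It was present in 6 of 1402 summit windows (0.428%, 0.196 to 0.931), compared with 2.68% (2.29 to 3.14) of those shared with beige, 0.734% (0.314 to 1.71) of those shared with RT, an interval that overlaps that of the members, and 2.38% of windows of the same length centred on all 93459 TSS positions. The shorter CCGGAA, which lies within CCGGAAGT, was present in 3.14% of the members, 10.7% of the peaks shared with beige and 8.32% of TSS windows. Over the whole peak, which is shorter in the members, CCGGAAGT was found in 15 members (1.07%) and in 9.19% of the peaks shared with beige. The 6 member windows were those of Gfm1, a mitochondrial elongation factor (CS −log10 q 6.29), Plcb2, a phospholipase C (6.08), Rac2, a small GTPase of blood cells (3.79), Cox10, an enzyme of heme A synthesis (2.98), Plscr1, a phospholipid scramblase (2.87) and Knop1 (2.04), printed above. Gfm1, Cox10, Plscr1 and Knop1 were open and acetylated in both genotypes, while Plcb2 and Rac2 had no ATAC peak and no H3K27ac peak in Flox or EAKO.

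Other promoter sequences were searched in the same windows, on both strands. The GC box GGGCGG, read by Sp1 and its relatives, was present at 20.8% (18.7 to 23.0) of the member summits, 41.9% of those shared with beige and 20.3% of TSS windows. The NRF1 sequence GCGCATGC was present at 0.428%, 2.48% and 1.14%, and CCAAT, the box of NF-Y, at 8.13%, 13.5% and 11.3%. The cyclic AMP response element TGACGTCA was present at 3 member summits (0.214%), 0.802% and 0.813%. For the E-box CACGTG the shares were 2.35%, 3.39% and 2.51%, and for the AP-1 sequence TGANTCA 1.78%, 1.24% and 1.95%, with intervals that overlap between members and shared peaks. A run of 6 CA units was present at 0.927% of the member summits (0.543 to 1.58), compared with 0.328% (0.208 to 0.518) of those shared with beige, 0.881% (0.404 to 1.91) of those shared with RT and 0.447% of TSS windows. A match gives letters only, and no match says only that the letters are not in the window.

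The genes of the members were counted in 54 lists of pathways, gene families and cell type markers, of which 50 held a member gene. The lists with 10 or more genes that had a CS promoter peak numbered 35. In 10 of these the share of such genes with a member peak was above the 19.8% of all genes, and in 25 it was below. No test was made over the lists. The lists lowest in this share were splicing factors (1 of 32 genes with a CS promoter peak), the unfolded protein and heat shock response (1 of 29), respiratory complex I (1 of 20) and cholesterol synthesis and uptake (1 of 19). The cytosolic ribosome had 4 of 58, counting Rps6kb1, which is a kinase and no ribosomal protein, and the mitochondrial ribosome 3 of 50.

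**Figure D5:**
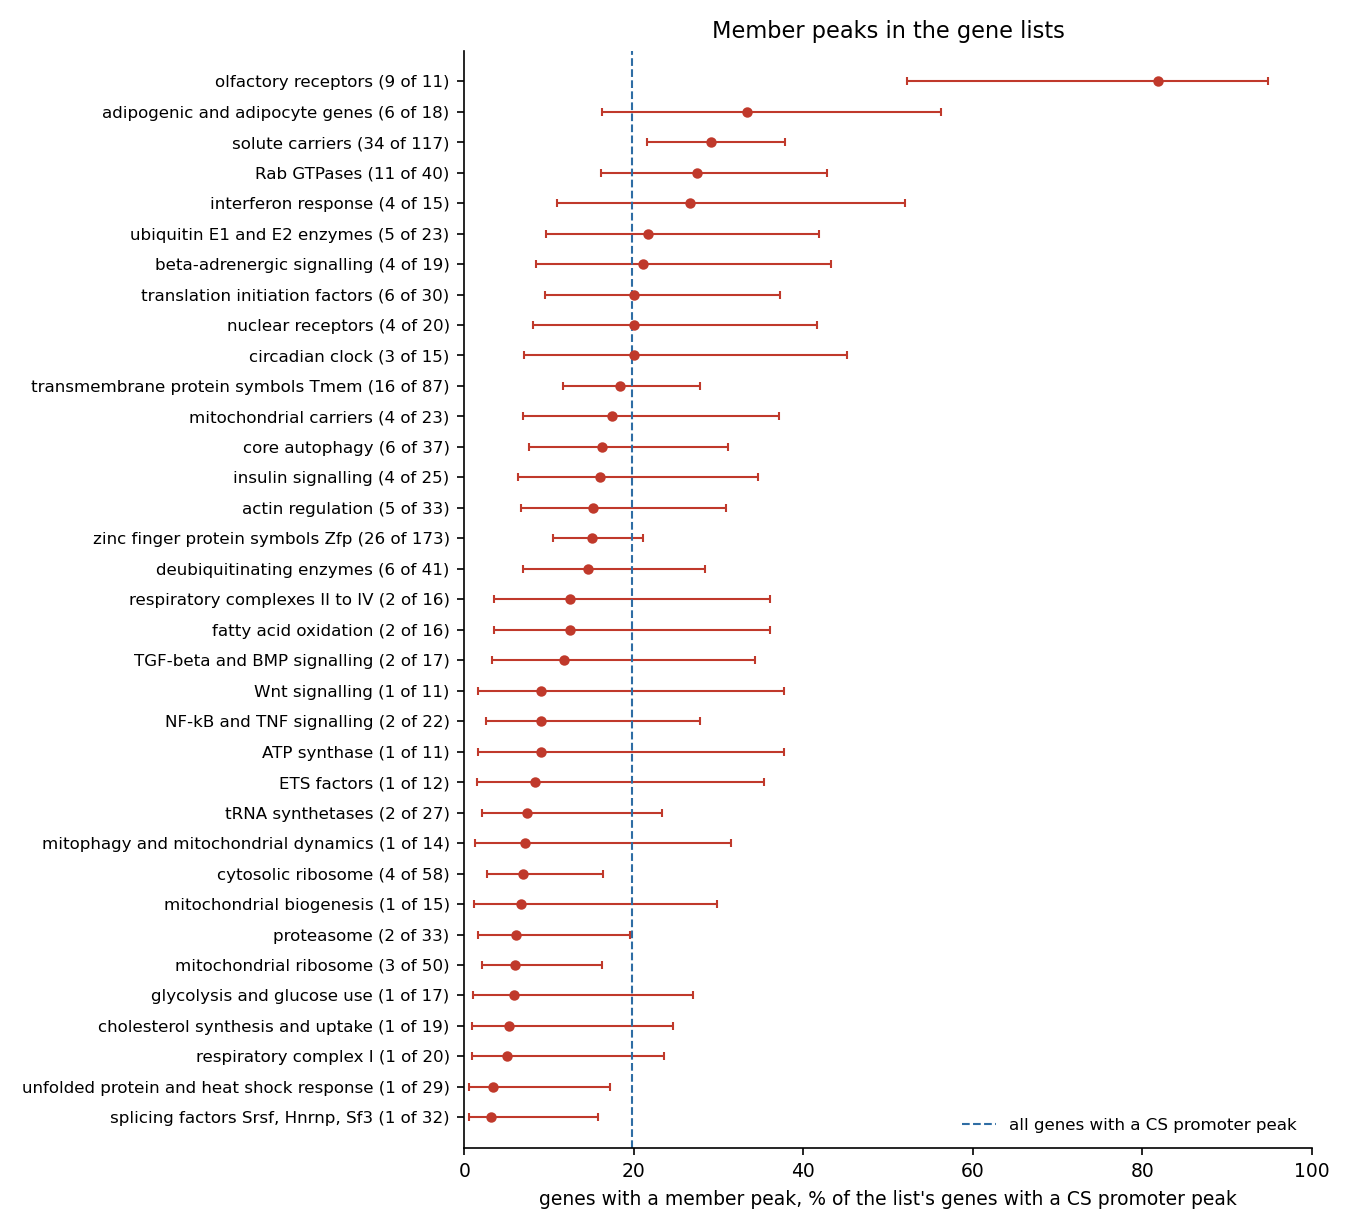
Genes with a member peak as a share of the genes of each list that had any CS promoter peak (%, x axis), for the 35 lists with at least 10 such genes; the counts stand beside the list names, the whiskers are 95% Wilson intervals and the dashed line is the 19.8% of all genes. Olfactory receptors, adipogenic and adipocyte genes, solute carriers and Rab genes are at the top, and splicing factors at the bottom.

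Among genes of the adipocyte, 6 of the 35 adipogenic and adipocyte genes had a member peak, out of 18 with a CS promoter peak. Of the 6, 3 had no RT or beige promoter peak. Pparg, the nuclear receptor that directs adipogenesis, had its member peak at chr6:115361082-115361299, 219 bp downstream of a TSS (−log10 q 4.39). It was open in Flox (20.7) and EAKO (11.5) and acetylated in both (30.3 and 33.4), and Pparg had a beige peak elsewhere in its promoter windows. Srebf1, which drives genes of lipid synthesis, was open and acetylated in both genotypes as well. Mgll, a lipase of monoacylglycerol, Pck1, a key enzyme of glyceroneogenesis, Acaca, which makes malonyl-CoA for fatty acid synthesis, and Cd36, a fatty acid transporter, had no ATAC peak over the member in either genotype, though Cd36 was acetylated in both (3.43 and 4.58). Pck1 was acetylated in EC+/+ (3.23) and EA+/+ (5.18) and not in Flox or EAKO. Of the 30 thermogenic genes only Cited1, a marker of beige cells, had a member peak (2.87), out of 6 with a CS promoter peak. It was open in both genotypes (18.8 and 23.5) and acetylated in EC+/+ only (4.09).

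Of 31 genes of beta-adrenergic signalling, a path by which cold acts on fat, 19 had a CS promoter peak and 4 a member peak (21.1% of the 19, against 19.8% of all genes). Of the 4, only Pde3b had no RT or beige peak in any promoter window. Pde3b, a phosphodiesterase that lowers cyclic AMP, had the strongest (3.65) and was open and acetylated in both genotypes, as was Prkacb, a catalytic subunit of protein kinase A (2.51). Adrb1, the beta-1 receptor (3.05), was open in both and acetylated in Flox only. Prkaca, the other catalytic subunit named (2.33), was neither open nor acetylated. In insulin signalling the 4 of 30 were Akt1, Rps6kb1, Pik3cd and Pik3ca, of 25 with a CS promoter peak (16.0%). Of these, only Pik3cd had no RT or beige promoter peak. The clock genes with a member peak were 3 of 23: Arntl, the core activator (6.25), Dbp, one of its output factors (4.65) and Rorb (2.14). A CS promoter peak was present at 15 of the 23, and of the 3 only Rorb had no RT or beige promoter peak. The member at Arntl was open in Flox (10.7) and not in EAKO, with H3K27ac in both, and Dbp was open in both without H3K27ac.

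Of 19 genes of mitophagy and mitochondrial dynamics, 14 had a CS promoter peak. Only Opa1, the dynamin that fuses inner mitochondrial membranes, had a member peak (chr16:29579244-29579476, −log10 q 7.32). It lay 13 bp upstream of a TSS, was open in both genotypes (132 and 104), was acetylated in all 4 H3K27ac lists (51.9, 50.8, 12.7 and 12.3 in Flox, EAKO, EC+/+ and EA+/+), and had no RT or beige peak in any promoter window. Ppargc1b, a coactivator of mitochondrial genes, was the only one of 20 genes of mitochondrial biogenesis (2.36), of which 15 had a CS promoter peak. Of 50 core autophagy genes, 37 had a CS promoter peak and 6 a member peak (16.2% of the 37, against 19.8% of all genes). The 6 were Tax1bp1, a cargo receptor (3.66), Gabarapl2 (3.44), Atg4a, a protease of the Atg8 proteins (2.87), Wdfy3 (2.14), Tfeb, a regulator of lysosomal genes (1.71) and Ambra1 (1.49). Of these, Tax1bp1, Gabarapl2 and Atg4a were open in Flox. All but Wdfy3 had a beige peak elsewhere in a promoter window, so 1 of the 6 genes lacked any RT or beige promoter peak, and 2 members reached a −log10 q of 3. Decr1, an auxiliary enzyme of beta-oxidation (4.98), and Uqcr10, a subunit of complex III (6.57), were open and acetylated in both genotypes. The Uqcr10 member also lay in a promoter window of Zmat5, and Uqcr10 had a beige peak elsewhere in a promoter window, so the gene was not bound in cold fat only. Decr1 had no RT or beige promoter peak.

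Of 69 genes whose symbols begin with Rab, which takes in effectors beside the GTPases, 40 had a CS promoter peak. A member peak was present at 11 (27.5% of the 40, against 19.8% of all genes). Of the 11, 8 had no RT or beige promoter peak, 11 were open in Flox and 10 were acetylated there. Of all 1422 member genes these were 710, 1006 and 1015. Rab11fip1, an effector of recycling endosomes (7.63), and Rab32, a GTPase of lysosome-related organelles and mitochondria (7.46), led the Rab list. At Rab32 the ATAC values were 99.8 in Flox and 69.0 in EAKO. Of 371 solute carrier genes 34 had a member peak, of 117 with a CS promoter peak. At 8 of the 34, against 206 of all 1422 member genes, none of the 6 lists had a peak. Among these 34, 21 were open and 22 acetylated in Flox, and 18 had no RT or beige promoter peak. Slc37a2, a sugar phosphate exchanger (5.38), Slc12a7, a potassium chloride cotransporter (5.13) and Slc35c1, the Golgi transporter of GDP-fucose (4.58), led them, and all 3 were open and acetylated in both genotypes. The 4 mitochondrial carriers, Slc25a21, Slc25a41, Slc25a12 and Slc25a10, had no ATAC peak over their members.

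Olfactory receptors, which act in the nose, had a CS promoter peak at 11 of 1093 genes, and at 9 of these it was a member peak. None of the 9 was open in Flox or EAKO, and 6 had no peak in any of the 6 lists. The strongest was Olfr632 (5.82), followed by Olfr43 (4.51). Oas1c and Gbp7, interferon-induced genes, were open and acetylated in both, in contrast with Oasl1. Of 35 genes of the interferon response 4 had a member peak, of 15 with a CS promoter peak, and 2 of the 4 had no RT or beige promoter peak. Beside Oasl1 these were Irf1, a transcription factor induced by interferon (5.55), Rsad2, an antiviral enzyme (2.69), and Irf2, a factor related to Irf1 (1.46). Irf1 and Rsad2 were open and acetylated in both genotypes, and Irf2 was open in Flox only (4.24) and acetylated in neither.

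Of 10 adipocyte markers, 1 had a member peak, Pparg. Cd34 (3.66) and Cd55 (2.87), of 20 markers of adipose stem and progenitor cells, were open and acetylated in both genotypes. Aif1 (5.95) and Laptm5 (1.93), of 20 markers of macrophages, and Blk, Nkg7 and Prf1, of 24 of lymphocytes, had no ATAC peak over the member. Of the endothelial markers Tie1 (3.66) had no ATAC peak and Cdh5 (2.73) a weak one in Flox alone (1.37), and the muscle gene Mb (2.86) had none. No marker of mural cells, mesothelium or epithelium had any CS promoter peak, so none could be a member, and none of the 3 Schwann cell markers with one was a member. Markers with a CS promoter peak numbered 3 for adipocytes, 3 for stem and progenitor cells, 3 for macrophages, 4 for lymphocytes, 2 for endothelium and 3 for muscle. These are too few to set against the 19.8% of all genes. The part of other cells in the members was not tested. In bulk lists of this kind, fewer cells of a type and less signal per cell cannot be told apart.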

How the data were processed

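Peak lists of 9 libraries, 1 per group, were used: Ets1 CUT&Tag in RT, CS and beige, ATAC in Flox and EAKO, and H3K27ac CUT&Tag in Flox, EAKO, EC+/+ and EA+/+. Per the submitters' processing notes and the study's methods, the authors trimmed reads with trimmomatic, aligned them to mm10 with BWA and called peaks per library with MACS2 at a q-value under 0.05. Normal IgG is named among the antibodies, but whether it served as control in peak calling is not given in the sources used here, nor are duplicate removal, excluded regions, a Tn5 shift for ATAC or the number of pooled mice. The deposited lists give a fold enrichment (ratio), −log10 p and −log10 q values, a score and a summit position for each peak, with no read counts. The study lists read totals that were near each other for RT and CS and for H3K27ac in Flox and EAKO, higher in Flox than in EAKO for ATAC, higher in EA+/+ than in EC+/+, and higher in beige than in CS. The p-value and the score were not used. A strength compares peaks within a list only, so no value was divided by that of another list.

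Overlap of at least 1 bp was computed in Python 3.11.15 with numpy 2.4.6, scipy 1.17.1 and pysam 0.24.0, and figures were drawn with matplotlib 3.10.9. Promoters reach 1000 bp on either side of 93513 gene and TSS pairs of GENCODE M21. A member is named by the protein-coding gene with the TSS nearest to its summit, open or acetylated means overlapping an ATAC or H3K27ac peak, and where several peaks overlap the strongest is given. Summit windows span 50 bases on either side of the summit. Repeat-masked bases are those in lower case in the RefSeq genome. The overlap, motif and copy counts were tested on simulated data with known answers. Named genes are the 15 strongest members, the 5 strongest of each class of openness and acetylation, up to 6 genes of each list, the 3 weakest, the 3 nearest to an RT or beige peak and the 5 strongest with the ETS sequence; names beyond these were chosen after their values were seen. The members and gene lists were chosen with earlier results of these data known. Of the list symbols, Mx2 and Trac were not found as protein-coding genes. Alternatives covered thresholds, overlap rules, promoter width, list size and subsets of members.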

Additional observations from a re-analysis of the deposited data

How the results depend on the processing

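The number of members depended on the rule. With all 3 Ets1 lists restricted to a −log10 q of at least 3 there were 767 peaks and 809 genes, and with only the CS list so restricted 658 and 689. If an RT or beige peak had to cover at least 50% of the CS peak, 2117 peaks and 2210 genes qualified. With the beige list reduced to as many peaks as CS, 2177 and 2205 did. With only the RT list as the exclusion it was 6254 and 6514. Counting a peak within 1 kb as shared left 944 peaks and 927 genes. The 500 bp promoter, the summit rule and the beige list as the sole exclusion kept both counts within 1.5 times of the main ones.

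The shares, in the order Flox ATAC, EAKO ATAC, Flox H3K27ac and EAKO H3K27ac, were 63.8%, 52.4%, 62.3% and 51.9% if the summit had to be covered, and 79.7%, 76.6%, 80.5% and 74.0% with peaks within 1 kb. They were 74.8%, 63.4%, 75.8% and 64.9% in members of −log10 q at least 3. With a threshold of 3 on the other lists only Flox H3K27ac left its interval (67.0%). In subsets chosen after the data were seen, they were 79.3%, 69.5%, 81.0% and 69.5% at −log10 q of at least 5, then 79.8%, 71.3%, 79.1% and 67.0% under 100 bp from a TSS, 87.0%, 70.5%, 82.8% and 67.9% at a CG ratio of at least 0.6, and 74.1%, 63.4%, 73.8% and 63.4% near protein-coding transcripts. Equal list sizes, members without CA repeats and members with 1 copy of the summit sequence kept all 4 within the main intervals. Flox stood above EAKO in every setting run. With whole lists in place of lists of equal size, a comparison chosen after the data were seen, the median rank difference was 3.16 for ATAC and 2.53 for H3K27ac. The ETS share was 3.14% for CCGGAA, 1.07% over the whole peak and 1.01% under 100 bp from a TSS. The lists with a member gene numbered 36 without genes that had RT or beige promoter peaks and 39 at −log10 q of at least 3. Of 108 counts for single lists under these settings, 67 moved by over 1.5 times. No paired analysis was possible because each group was 1 library and no test was made. The lists hold no read counts, so the part of depth in an uncalled peak was not tested.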
